A study of Petunia x hybrida with 12 samples.

Results

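Pistils of plants carrying an RNA interference construct against PhTPS1 were compared between the day before the flower opens (day -1) and the day after (day +1). The plants belong to Mitchell, a cultivar of Petunia x hybrida widely used in the laboratory for its scented white flowers, and are called tps1 as in the labels. These were 6 of the 12 libraries of the study, chosen by their labels: 3 tps1 libraries at day -1 and 3 at day +1. The other 6 came from wild-type (WT) pistils of the same cultivar on the same days, and they were used for the shared estimate of spread and for comparison. All pistils were collected at 14:00, and polyadenylated RNA was sequenced. The labels give neither the promoter nor the line of the construct, and no group carried a control construct, so a difference between tps1 and WT cannot be told apart from other differences between the plants. Whether a library stands for its own plant or for a pool is not stated either, so p-values measure only how far these libraries differ, and part of that spread may be technical.

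The pistil is the female organ of the flower, made up of stigma, style and ovary. As a flower opens, the pistil becomes receptive to pollen, and the petals of petunia begin to emit volatiles. The enzyme PhTPS1 makes sesquiterpenes, volatile terpenoids that petunia flowers release inside the closed bud and that the pistil takes up. KAI2 is a plant receptor of the alpha/beta hydrolase family that acts, with an F-box partner, through the breakdown of repressor proteins. The deposited table names genes by identifiers (IDs) and does not pair them with gene names. PhTPS1 and the KAI2 pathway were therefore not looked up, the effect of the construct on its target was not analysed here, and pistil markers could not be checked. Results are given for classes of IDs and for a few IDs as deposited, with no function assigned.

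The tps1 libraries held 25625763, 29757361 and 26028648 counts at day -1 and 28571066, 21356182 and 29614270 at day +1. Of the 35812 IDs of the table, 9738 had no count in any tps1 library, and 21239 passed the filter on low counts (at least 10 counts, scaled to library size, in at least 3 of the 12 libraries). The tested IDs held 99.95 to 99.97% of the counts of a library. On a principal component analysis of the 6 tps1 libraries, the first component held 92.6% of the variance and separated the days. Replicate 2 of day -1 stood apart from replicates 1 and 3 of that day, at -57.6 on the second component (5.31% of the variance) against 21 and 31.8. The values of the IDs behind this are given further on. The total numbers of IDs called higher and lower between the days are given with and without that library, but other counts of IDs are not.

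Most of the pistil transcriptome of tps1 changed between the days. At day +1, 6761 IDs were higher (31.8% of those tested) and 6999 lower (33%) than at day -1, together 64.8% (edgeR quasi-likelihood test, Benjamini-Hochberg adjusted p under 0.05). Many of these changes were small: 3536 of the 13760 called IDs had a fitted change under 1.5-fold, and 6472 under 2-fold. The median fitted change over all tested IDs was 0.0034 on the log2 scale, with quartiles at -0.68 and 0.59. TMM scaling between libraries sets the bulk of changes near 0. Nothing is therefore read from this median or from the near-equal totals of the 2 directions. With library size as the only scaling, 5373 IDs were higher and 8138 lower, and the median was -0.14. At 13485 of the 13760 called IDs the 3 values of one day did not overlap those of the other, which held for 72.5% of all tested IDs.

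A test against a change of 2-fold (edgeR glmTreat, adjusted p under 0.05) was used to find IDs whose change exceeded that size beyond the spread. It called 2489 IDs higher (11.7%) and 2689 lower (12.7%), together 24.4%. The IDs that rose had a median of 0.711 CPM (the deposited counts divided by the library size after TMM scaling) at day -1. At day +1 it was 20.1 CPM. The IDs that fell had a median of 12.3 CPM at day -1 and 1.67 CPM at day +1. Each list is by its choice low on a single day, and the filter lets an ID pass through the libraries of the other day. Nothing is therefore read from the low medians. Without tps1 day -1 replicate 2 the same test called 2878 IDs higher and 3005 lower, and 7140 and 7185 passed the plain test.

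**Figure D1:**
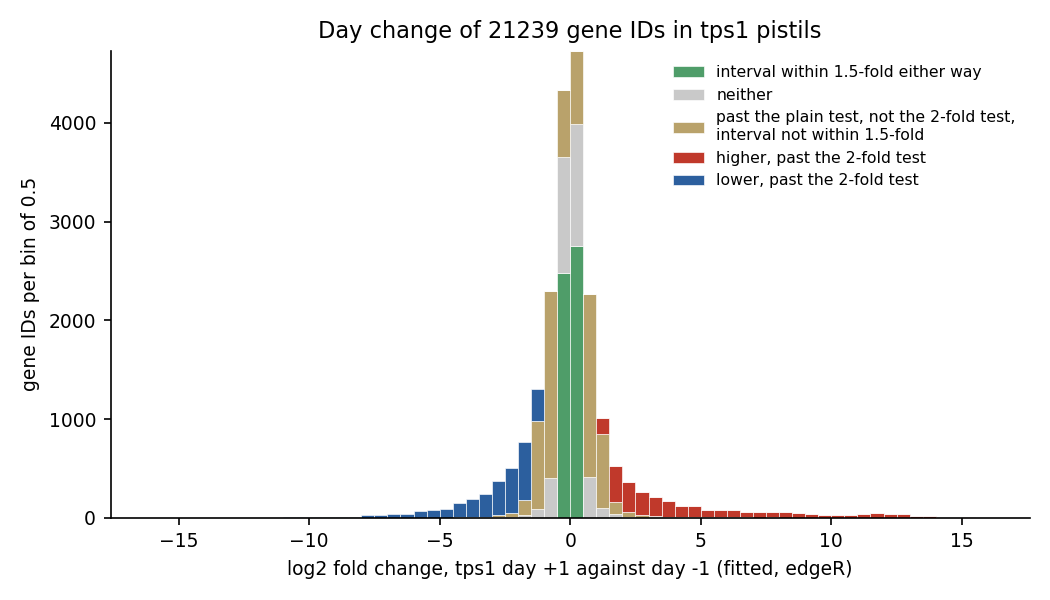
Histogram of the fitted log2 fold change of all 21239 tested IDs between tps1 day +1 and day -1 (x axis) against the number of IDs per bin (y axis), coloured by class. The 2489 IDs higher and the 2689 IDs lower past the 2-fold test form the 2 flanks, and the upper flank reaches farther from 0 than the lower one; the 5233 IDs held within 1.5-fold lie in the centre.

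A missed threshold does not show that a gene stayed level, so the interval of each change was used to find IDs that did. At 5233 IDs (24.6% of those tested) the 95% interval of the change lay within 1.5-fold in either direction. Of these, 1318 also passed the plain test, which shows a change that was detectable but small. A further 3564 IDs were neither called nor held within that bound. They were scarce, with a median of 3.2 CPM over the 6 tps1 libraries against 29.4 CPM for the held IDs. Their median standard error was 0.31 on the log2 scale against 0.1 for the held IDs. The bounds are relative to the TMM scaling, and with library size as the only scaling 4936 IDs were held.

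The share of calls differed with the level of the IDs. The tested IDs were ordered by mean CPM in tps1 and cut into 10 bins of about 2124. In the lowest bin (up to 1.01 CPM), 26.6% were called higher and 31.3% lower by the plain test, and 0% could be bounded within 1.5-fold. In the highest bin (from 95.2 CPM), 38.3% were called higher and 34.9% lower, and 27.7% were bounded. Changes past the 2-fold test were least frequent in bin 8 from the bottom (36 to 54.2 CPM), where 9.51% rose and 6.92% fell. They were more frequent at the bottom, with 17.6% higher and 19.5% lower in the lowest bin. The filter asks for counts in 3 libraries, the size of a single group, so an ID of low mean can pass through a single day. That favours changes past 2-fold at a low level, so nothing is read from their excess in the lowest bin. In the highest bin 14.3% rose and 10.1% fell past that test. The balance of the directions depends on the TMM scaling, so nothing is read from it. With library size as the only scaling, the 2-fold test called 2284 IDs higher and 3093 lower over all bins.

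The changes moved a large part of the RNA pool. The classes described next were chosen on the tps1 libraries, so their shares in tps1 are a description. The 2489 IDs that rose took 3.23, 4.65 and 3.38% of the counts in tps1 day -1 replicates 1, 2 and 3, and 24.5, 20.3 and 21.9% in the day +1 replicates. The 2689 IDs that fell took 18, 15.7 and 17.5% at day -1 and 3.15, 3.55 and 3.22% at day +1. The 5233 held IDs took 28.2, 29.2 and 27.8% at day -1 and 25, 26.7 and 26% at day +1. Before opening, then, tps1 day -1 replicate 2 had the highest share for the rising class and the lowest for the falling class, and the days did not overlap in any of the 3 classes. Shares are of library totals without TMM scaling, while the bound of the held IDs is relative to that scaling. The TMM factors were 1.05 to 1.06 in the tps1 day -1 libraries and 0.933 to 0.968 at day +1. No change of the held IDs is therefore read from their share.

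The WT libraries entered this choice through the filter, the scaling and the shared spread, but not through the contrast itself. In WT, the IDs that rose in tps1 took 3.54, 4.52 and 3.85% of counts at day -1 and 19.4, 17.6 and 25.1% at day +1. Those that fell in tps1 took 17, 16.9 and 17.4% at day -1 and 3.53, 3.6 and 3.29% at day +1. For both classes the WT days did not overlap, and an exact two-sided permutation test over the WT libraries gave p = 0.1 for either class, which 3 libraries against 3 cannot go below. The share of the held IDs overlapped between the WT days, at 28.1% ± 0.715 and 26.3% ± 1.4 (SD, n = 3; exact permutation p = 0.2).

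**Figure D2:**
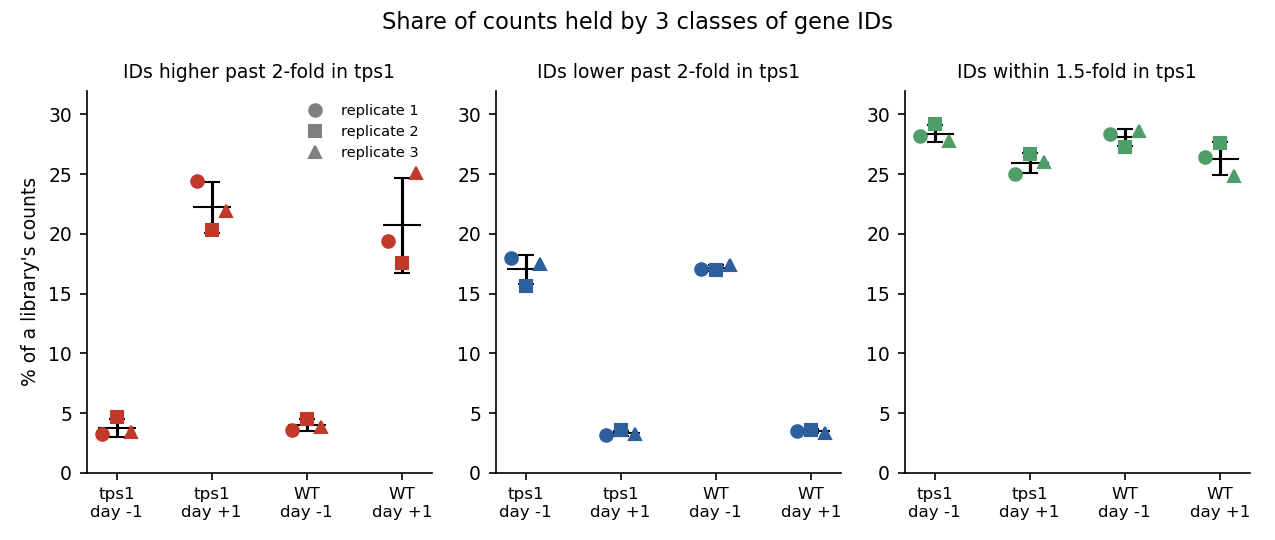
Percent of a library's counts (y axis, from 0) held by IDs higher past the 2-fold test in tps1, lower past it, and held within 1.5-fold, in each library of the 4 groups; bars are the mean and SD of 3 libraries. The rising class lies between 3.23 and 4.65% in the tps1 day -1 libraries and between 20.3 and 24.5% at day +1, and the falling class shows the reverse.

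Fitted fold classes show where the 2 directions differed. Of the called IDs, 1406 rose and 1958 fell by 2 to 4-fold, and 615 rose and 866 fell by 4 to 8-fold. Past 32-fold the order was the other way, with 844 IDs higher and 325 lower. The 844 IDs took 0.025% ± 0.00547 of tps1 counts at day -1 and 6.64% ± 1.83 at day +1 (SD, n = 3). The 325 IDs took 1.78% ± 0.123 at day -1 and 0.02% ± 0.00378 at day +1. Where 1 side holds few counts, the fitted change depends on the small prior count edgeR adds, so these are numbers of fitted values.

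A block of IDs accounted for much of that upper end. It is the set of 585 IDs whose CPM in WT replicates 3 and 2 of day +1 were 4-fold or more apart, with a mean of at least 5 CPM there, all of them higher in replicate 3, and it was chosen after the WT values were seen. In tps1 it took 0.206, 0.187 and 0.247% of the counts at day -1 and 8.94, 4.85 and 6.01% at day +1, so the days did not overlap and the tps1 day +1 libraries differed among themselves. Of its members, 569 were called higher in tps1, 542 of them past the 2-fold test, and 0 lower, where 31.8, 11.7 and 33% of all tested IDs were so called. The choice asked for a level at day +1 and none at day -1, which favours rising IDs, so nothing is read from these counts. It held 439 of the 844 IDs past 32-fold, and without it 405 rose past 32-fold against 325 that fell. Rising IDs outside the set took 15.8, 15.6 and 16.1% of tps1 counts at day +1, a narrower range than with it. With the set left out before the fit, the 2-fold test called 2001 IDs higher and 2630 lower. RNA from another tissue or cell type could not be checked without gene names, and in pistil RNA more cells of a type and more RNA per cell cannot be told apart.

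IDs that were close to absent on one day were counted directly. At 361 IDs the 3 tps1 day -1 libraries together held at most 3 counts, while each day +1 library stood at 1 CPM or more. The reverse was found for 69 IDs. Of the 361, 169 had 0 counts at day -1, which for 1 library allows up to 0.101 to 0.117 CPM (3 counts, counting error only). The median of all 361 at day +1 was 16.2 CPM and the highest was 531 CPM. The co-varying set supplied 216 of the 361 and 0 of the 69, so without it the numbers were 145 and 69. Those 145 were of low level, with a median of 2.99 CPM at day +1. The 69 had a median of 2.79 CPM at day -1.

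In WT, 97 IDs met the criterion for absence at day -1 and 69 that for absence at day +1. These numbers do not compare the genotypes, because WT day -1 replicate 2 held counts of most of the IDs concerned. Of the 361 IDs of tps1, 301 also reached 1 CPM in all 3 WT libraries of day +1. At day -1, 1 of the 361 had more than 3 counts in WT replicate 1, 33 in replicate 3 and 270 in replicate 2. Of those 270, 199 belonged to the co-varying set.

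The RNA pool was also less even after opening. In each library the 10 IDs with the most counts held 6.78, 6.75 and 7.05% of the total at day -1 and 9.63, 10.04 and 9.98% at day +1. The effective number of IDs, the exponential of the Shannon entropy of the count shares, fell by 812, from 5612 ± 97.8 at day -1 to 4800 ± 25.9 at day +1 (SD, n = 3). Both measures separated the days without overlap (exact two-sided permutation test, p = 0.1 for each, the smallest possible with n = 3 per group). The number of IDs at 1 CPM or more was 18273, 18379 and 18215 at day -1 and 18465, 18399 and 18471 at day +1 (exact permutation p = 0.1, n = 3), but with a limit of 5 CPM the difference turned to 108 fewer at day +1. A direction for the number of IDs in use therefore depends on the limit chosen. In WT the 10 IDs with the most counts held 7.23% ± 0.869 at day -1 and 10.4% ± 1.08 at day +1 (SD, n = 3). The effective number of IDs in WT was 5546 ± 263 and 4548 ± 203. The loss of evenness was thus seen in both genotypes.

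The leading IDs were exchanged in part. Of the 10 IDs with the highest mean CPM at day -1, 6 were among the 10 highest at day +1. Of the first 100, 47 were shared, and of the first 1000, 599. In WT the shared numbers were 6, 47 and 582. Of the first 100 IDs of tps1 at day -1, 30 were lower past the 2-fold test (12.7% of all tested IDs). Of those 100, 21 were held within 1.5-fold, near the 24.6% of all tested IDs. Of the first 100 at day +1, 45 were higher past that test (11.7% of all tested IDs), and 12 belonged to the co-varying set. IDs picked for a high level on 1 day are by that choice more often higher on that day, so nothing is read from the 30 and the 45. CPM is not corrected for transcript length, so these ranks are of counts and not of transcripts.

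The summed gain in CPM over the rising IDs was concentrated, with 113 of the 2489 holding 50% of it. The summed loss was concentrated to a like degree, with 109 of the 2689 holding 50% of it. The IDs named next are those with the largest gain and the largest loss of mean CPM among IDs past the 2-fold test.

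Peaxi162Scf00164g00108 gained most. It stood at 3364, 3152 and 3076 CPM in tps1 day -1 replicates 1, 2 and 3 and at 11687, 11582 and 10977 CPM at day +1. The days were far apart and the replicates close on each day. It rose 3.57-fold (1.84 ± 0.101 SE as log2, edgeR adjusted p = 1.66e-07), from the 8th to the 2nd rank by mean CPM, and took 1.09% of tps1 counts at day +1.

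Peaxi162Scf00047g01927 gained the next most. It stood at 359.8, 643 and 380.2 CPM at day -1 and at 5200, 4311 and 5119 CPM at day +1. Replicate 2 was the highest of day -1 and the lowest of day +1, with no overlap between the days. It rose 10.6-fold (3.40 ± 0.296 SE as log2, edgeR adjusted p = 4.25e-06), from rank 207 to rank 6. In WT the changes of these IDs were 3.67-fold and 10.3-fold, and the 95% intervals of the difference between genotypes ran from -0.35 to 0.26 and from -0.81 to 0.88 on the log2 scale.

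Peaxi162Scf00732g00334 lost most. It stood at 2998, 3211 and 2392 CPM at day -1 and at 102, 176 and 97.7 CPM at day +1. All day +1 values lay more than 10-fold below those of day -1. It was 22.9-fold lower at day +1 (-4.52 ± 0.266 SE as log2, edgeR adjusted p = 2.68e-07), and its rank went from 9 to 1481. In WT it was 17.9-fold lower.

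Peaxi162Scf00803g00534 lost the next most. It stood at 3362, 4140 and 3180 CPM at day -1 and at 990, 1271 and 961 CPM at day +1. The days did not overlap, and it remained among the first 100 IDs at day +1, at rank 59. It was 3.32-fold lower at day +1 (log2 fold change -1.73 ± 0.186 SE, edgeR adjusted p = 1.96e-05). In WT it stood at 1217, 1595 and 1973 CPM at day -1 and at 896, 927 and 822 CPM at day +1, a change of 1.81-fold. The day -1 values of WT were all below those of tps1, and the day +1 values were closer together. The difference between the genotypes in its day change was -0.87 in log2 units with an SE of 0.257 (edgeR adjusted p = 0.765, unadjusted p = 0.00635), which did not pass the threshold over all tested IDs. The ID was named for its loss in tps1, which favours a high tps1 day -1 level and a difference in this direction. Nothing is therefore read from the unadjusted p or from the lower WT day -1 values.

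**Figure D3:**
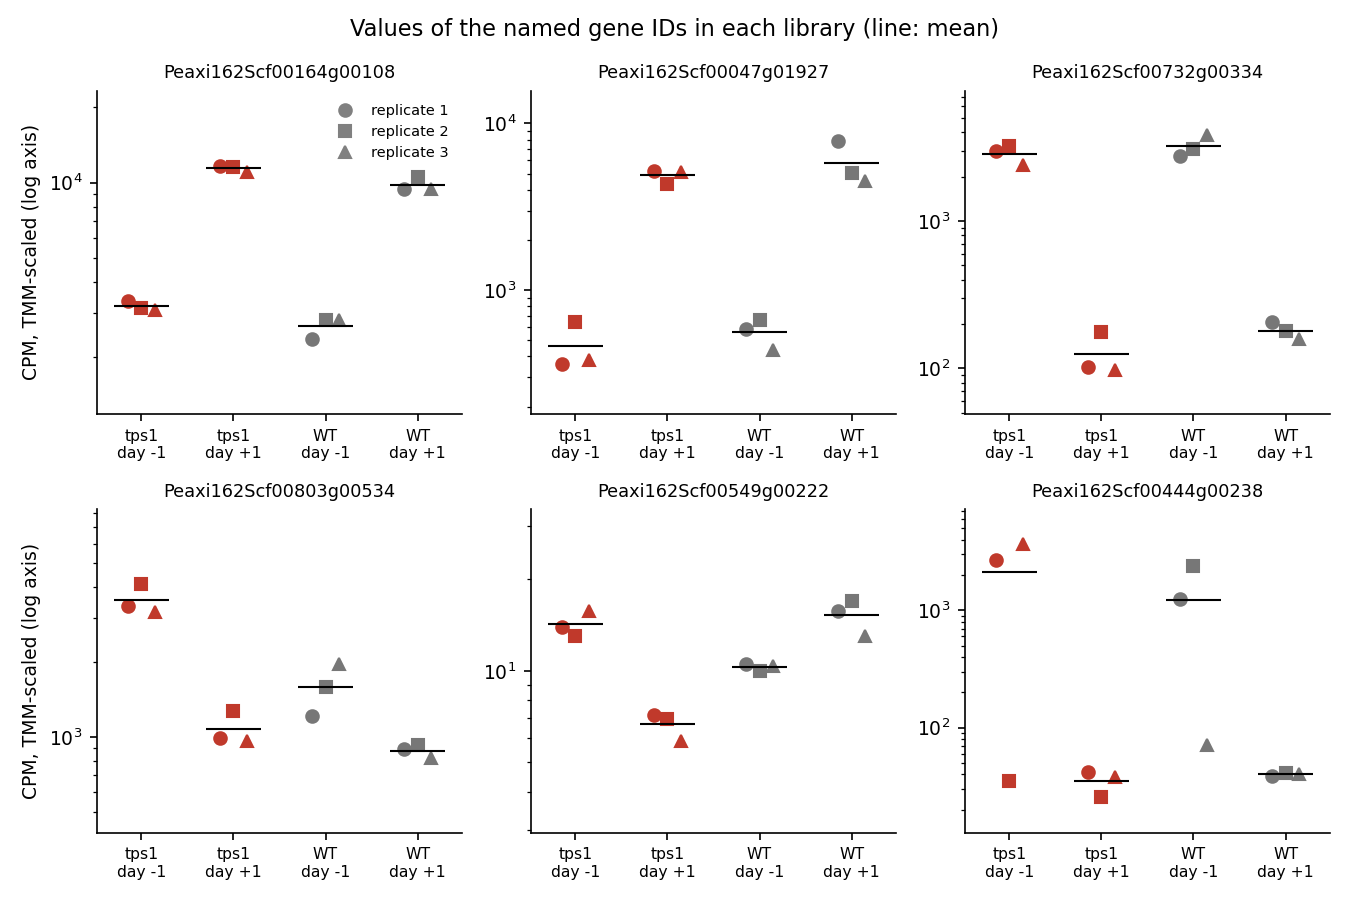
CPM on a log axis in each library (points, with shapes for replicates 1 to 3) and the group mean (line) for the 6 named IDs, in tps1 and WT on both days. The first 4 change between the days in both genotypes; Peaxi162Scf00549g00222 falls in tps1 and rises in WT; Peaxi162Scf00444g00238 has 1 low library in each genotype at day -1.

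The libraries of day -1 differed among themselves more than those of day +1. The biological coefficient of variation within a group was 27% in tps1 at day -1 and 9.63% at day +1. Without replicate 2 the day -1 value was 13%, while leaving out replicate 1 or 3 gave 32.9 and 30.5%. The day +1 values with 1 library left out ran from 7.26 to 11.8%. Among IDs at a mean of 5 CPM or more in the group, those at which 1 library stood at least 4-fold from both others (0.5 CPM added) were counted. In tps1 day -1 replicate 2 stood below both others at 113 IDs and above both at 37. Replicate 1 did so at 0 IDs, replicate 3 was above at 10, and the 3 day +1 libraries had 0.

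The 113 IDs low in tps1 day -1 replicate 2 had a median of 58.9, 5.3 and 81.1 CPM in replicates 1, 2 and 3 of that day. At day +1 their medians were 16.2, 15 and 16.7 CPM. The choice fixes that replicate 2 was low and that replicates 1 and 3 were high, which favours a day +1 level between them. At 62 of the 113 the tps1 day +1 mean was at least 4-fold below both replicate 1 and replicate 3. At 58 replicate 2 stood within 2-fold of that mean. Nothing is read from the 62 or from these 58. Of the 113, 58 were called lower at day +1 in tps1, 28 of them past the 2-fold test, and 54 were not called in either direction. Over all tested IDs, 33% were called lower and 12.7% were lower past the 2-fold test; the 113 were chosen on libraries of this same comparison, so nothing is read from their counts. The median of replicates 1 and 3 lay above those of all day +1 libraries, and that of replicate 2 below them.

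WT was not used to choose these IDs. In WT day -1 they had medians of 45.4, 61.6 and 11.6 CPM in replicates 1, 2 and 3, and at day +1 all 3 medians were 15.3 or 15.4 CPM. By these medians WT day -1 replicate 3 lay below the day +1 libraries, as tps1 day -1 replicate 2 did. Of 35 IDs at which WT day -1 replicate 3 stood at least 4-fold below both other WT libraries, 34 were among the 113, which is 97.1% of the WT list and 30.1% of the tps1 list. The group took 2.49, 0.283 and 3.03% of the counts in the tps1 day -1 libraries and 1.42, 2.1 and 0.45% in those of WT. In all 6 day +1 libraries it took 0.363 to 0.409%, so by share of counts WT day -1 replicate 3 lay above them and tps1 day -1 replicate 2 below. Each genotype therefore held 2 high libraries and 1 low one before opening, under different replicate numbers.

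The 37 IDs high in tps1 day -1 replicate 2 had medians of 4.77, 42.5 and 4.62 CPM at day -1 and of 63.6, 62.1 and 57.9 CPM at day +1. At 28 of them the tps1 day +1 mean was at least 4-fold above both replicates 1 and 3. In WT day -1 their medians were 7.38, 8.74 and 20.6 CPM, with replicate 3 again the one nearer to day +1. By median, tps1 day -1 replicate 2 lay nearer to day +1 than replicates 1 and 3 did in both groups of IDs. For the 113 it lay below day +1, at 5.3 CPM against 15 to 16.7. Replicate 2 was within 2-fold of the tps1 day +1 mean at 58 of the 113 and at 14 of the 37. Both groups were chosen on these libraries, which favours such a pattern, so nothing is read from it or from the 28. The labels give 1 collection hour for all libraries and no closer stage of the flower for each, and what set these libraries apart was not tested.

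Peaxi162Scf00444g00238 is shown as the member of the 113 with the highest level in replicates 1 and 3, and was chosen after its values were seen. It stood at 2699, 35.4 and 3663 CPM in tps1 day -1 replicates 1, 2 and 3 and at 41.9, 25.4 and 37.8 CPM at day +1. In WT it stood at 1243, 2379 and 70.8 CPM at day -1 and at 38.7, 41.3 and 40.1 CPM at day +1. One library of each genotype was thus near the day +1 level before opening, and the days overlapped in tps1. Its fitted change was -5.93 in log2 units with an SE of 1.51 (edgeR adjusted p = 0.00565), with a 95% interval from -9.29 to -2.57.

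**Figure D4:**
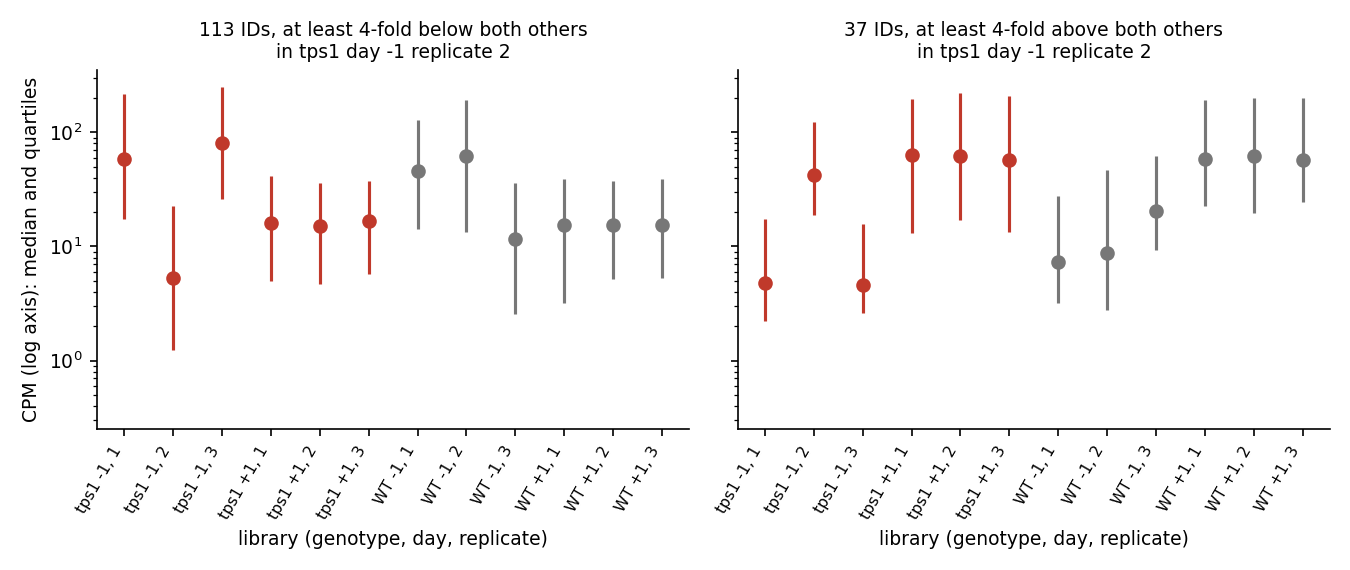
Median (point) and quartiles (line) of CPM, on a log axis, over the 113 IDs low and the 37 IDs high in tps1 day -1 replicate 2, in each of the 12 libraries. For the 113 IDs, tps1 day -1 replicate 2 (5.3 CPM) and WT day -1 replicate 3 (11.6 CPM) lie below the other day -1 libraries of their genotype, and the day +1 libraries lie close together.

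The change of tps1 was set beside that of WT. The plain test called 6641 IDs higher (31.3%) and 7120 lower (33.5%) after opening in WT, and the 2-fold test called 2137 higher (10.1%) and 2631 lower (12.4%). The genotypes share no library in these comparisons, but the spread per ID was estimated over both. Past the 2-fold test, 1895 IDs were higher in both genotypes, 76.1% of the tps1 list and 88.7% of the WT list. The number lower in both was 2301, 85.6% of the tps1 list and 87.5% of the WT list. Of the 594 rising IDs of tps1 that did not pass in WT, 185 belonged to the co-varying set, against 542 of all 2489 rising IDs. The set was chosen for a gap between WT day +1 libraries, which widens the WT spread, so nothing is read from the 185. Of all 2489, 4 had a fitted change in the other direction in WT, and of the 2689 falling IDs 0 did.

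Over the 5178 IDs past the 2-fold test in tps1, the slope of the tps1 change on the WT change was 1.18 across IDs, and over the 4636 outside the co-varying set it was 1.03. IDs are not independent replicates, and they were chosen on the tps1 change, so these slopes are a description. The median difference of the day change, tps1 minus WT, was 3.99 on the log2 scale for the set. It was 0.11 for the other rising IDs, -0.08 for the falling IDs outside the set and 0.01 over all tested IDs. The set stood at 0.207, 1.07 and 0.192% of counts in WT day -1 replicates 1, 2 and 3, and with WT day -1 replicate 2 left out of the fit the median difference of its members was 0.55.

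**Figure D5:**
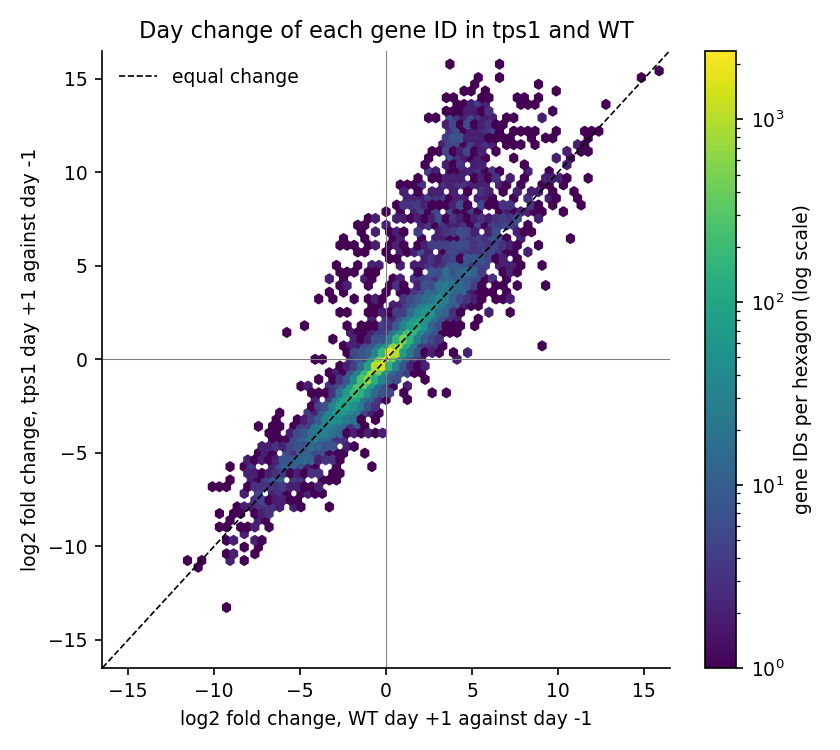
Fitted log2 day change of each tested ID in WT (x axis) and tps1 (y axis), as the number of IDs per hexagon on a log colour scale; the dashed line marks equal change. Most IDs lie along the line, with a slope of 1.03 for those past the 2-fold test in tps1 outside the co-varying set; a group in the upper right lies above it.

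The difference itself was tested by the interaction of genotype and day. It passed the threshold at 1 ID (0.00471% of those tested), and 1300 IDs (6.12%) had an unadjusted p under 0.05, of which 755 had the higher change in tps1. The co-varying set, 585 of the 21239 tested IDs, supplied 195 of the 1300. It was chosen on WT libraries of this same test, so nothing is read from the 195. The ID past the threshold was Peaxi162Scf00549g00222. In tps1 its values were 13.9, 13 and 15.8 CPM before opening and 7.17, 6.97 and 5.87 CPM after it. In WT they were 10.5, 9.99 and 10.3 CPM before opening and 15.7, 17 and 13 CPM after it. It was lower after opening in tps1 and higher in WT, with no overlap between the days in either. The tps1 change was -1.09 in log2 units with an SE of 0.125 (edgeR adjusted p = 3.07e-05), and its difference from the WT change had a 95% interval from -2.05 to -1.27 (edgeR adjusted p = 0.0439). The call was lost when any 1 of 10 of the 12 libraries was left out, while the difference ran from -1.76 to -1.57 on the log2 scale over all 12 such fits.

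The intervals show how large a difference between the genotypes could have gone unseen. At 13734 IDs (64.7%) the 95% interval of the difference lay within 2-fold, and at 8534 (40.2%) within 1.5-fold. Among the 5178 IDs that changed past 2-fold in tps1, the difference was bounded within 2-fold at 1706 and within 1.5-fold at 648. In the co-varying set it was bounded within 2-fold at 0 IDs. For most IDs with a large day change, a 2-fold difference between tps1 and WT therefore lay inside the interval.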

How the data were processed

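The authors deposited raw read counts, as whole numbers, per gene ID. Per the submitters' processing notes, cutadapt, TopHat2 and HTSeq were used; no version, genome build or strand setting is recorded in the labels, so near-identical, overlapping or antisense genes may share reads. Columns were matched to samples by the names in the sample descriptions, with 0 left unused.

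The analysis used edgeR 4.0.16 under R 4.3.3, with filterByExpr (minimum count 10), TMM scaling and a quasi-likelihood fit of 1 mean for each group over all 12 libraries (biological coefficient of variation 24.6%). Contrasts were day +1 against day -1 in tps1 and in WT, and their difference. P-values were adjusted over all 21239 tested IDs. The SE of a log2 fold change is the change over the root of F, and intervals use it with the t distribution. Both are approximations. The pipeline was tested on simulated data. Between replicates, chi-square over its degrees of freedom was 7.8 to 110, far more than sampling gives, so none was counted as a duplicate. The floor of 3 counts covers counting error only.

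Members and classes were chosen with earlier results of these data known. IDs named by rule were the 2 largest gains and the 2 largest losses of mean CPM past the 2-fold test, and IDs past the interaction test. Gene lists needed names and were not tested. Alternatives were DESeq2 1.42.0, limma 3.58.1 (voom), other scalings and filters, tps1 fitted alone, a replicate block and leaving out libraries. Unscaled libraries, removal of the co-varying set and removal of both day -1 libraries numbered 2 were added after seeing the data.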

Additional observations from a re-analysis of the deposited data

Results flagged for a closer look

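The day change of Peaxi162Scf00549g00222 differed between tps1 and WT by -1.66 on the log2 scale, by the test of the difference itself. It was lower at day +1 in 3 of 3 tps1 libraries and higher in 3 of 3 WT libraries than in any day -1 library of the same genotype. The ID was chosen for passing this test, and in tps1 the days did not overlap at 72.5% of all tested IDs. The call was lost in 12 of 21 alternatives, among them limma-voom (adjusted p = 0.052) and the replicate block (edgeR adjusted p = 0.646).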

How the results depend on the processing

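The counts of IDs higher and lower in tps1 stayed within 1.5 times the reported ones under every alternative run, as did those for WT and the number held within 1.5-fold. With DESeq2, 6995 IDs were higher and 6979 lower. With library size as the only scaling, 5373 were higher and 8138 lower, and the median change over all IDs shifted to -0.14 on the log2 scale. The 2-fold test called from 2001 to 3070 IDs higher and from 2062 to 3093 lower. With the classes redrawn each time, their shares of counts were less stable. Rising IDs took from 16.6 to 26.1% of tps1 day +1 counts, and the value moved by more than its SD in 8 of 22 alternatives. Falling IDs took from 13.7 to 21.7% of tps1 day -1 counts, and the value moved in 10 of 22. Without tps1 day -1 replicate 2 the shares were 25.6 and 21.1%. The number of IDs in use reversed to -108 (day +1 minus day -1) with a limit of 5 CPM. The count of IDs whose day change differed between genotypes was 2 with DESeq2 size factors, with no scaling and without the co-varying set, 0 with limma-voom and with the replicate block, 10 without both day -1 libraries numbered 2, 92 with DESeq2, and 0 to 4 with 1 library left out. The cause was not tested. With the replicate block, 6351 IDs were higher and 6523 lower in tps1, and Peaxi162Scf00444g00238 lost its call (adjusted p = 0.0687). Deviations of same-numbered libraries from their group means had correlations across IDs of -0.00042, 0.0449 and -0.00198 in tps1. In WT they were 0.137, -0.574 and -0.35. With 3 libraries per group such values also follow single odd libraries, so they cannot show whether the numbers pair libraries. The labels do not say.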

Other observations

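IDs that follow each other when the deposited IDs under 1 scaffold number are sorted by number, whatever the gap, were compared in their tps1 day change. Whether the numbers follow position on the scaffold is not given in the sources used here. Over 13880 such pairs with both IDs tested, the log2 changes correlated weakly across pairs (r = 0.0578, Spearman's rho = 0.039). Past the 2-fold test, 229 pairs rose together, 247 fell together and 402 moved in opposite directions. The 402 counts both orders of a rise and a fall, and no reference share was computed for it, so nothing is read from it. After a rising ID the next ID rose in 14.9% of pairs, against 11.1% of all pairs, and after a falling ID the next fell in 14.5%, against 12.6%. These shares lie near those over all pairs, and the differences were not tested.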
